A study of Mus musculus with 8 samples.

Results

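The 10 genes described here mark the mature, absorptive end of the colonic epithelium: the villin gene Vil1, the myosin gene Myo1a, the protocadherin genes Cdhr2 and Cdhr5, the scaffold gene Ush1c, the keratin gene Krt20, Ceacam20, Emp1, and the transporter genes Slc37a2 and Slc51a. They were chosen by name, as brush border components and genes of differentiated colonocytes, from the 53465 gene identifiers of an RNA-seq table of mouse colon. Earlier results of these data were known when they were chosen. All 10 were measured in every library, and all 10 were among the 16380 genes with a mean of at least 3 on the scale of the table, which were the genes tested. That scale is the regularised log2 (rlog), on which a difference of 1 is a doubling and low-count genes are drawn towards their own mean.

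Colonocytes are born in the crypt and mature as they move to the surface, where their apical membrane is folded into microvilli, each held up by a bundle of actin filaments. Villin bundles those filaments and myosin-1a ties the bundle to the membrane, while the protocadherins CDHR2 and CDHR5 link the tips of neighbouring microvilli and are anchored from inside the cell by the scaffold protein encoded by Ush1c. Keratin 20 is a keratin of the surface cells, and mature colonocytes carry the transporters of their absorptive work.

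The libraries came from 8 mice on the B6 background, 4 wild type for Arg1 and 4 labelled Arg1 ko, with 1 library per mouse in the labels. The product of Arg1 is an enzyme that breaks down the amino acid arginine. The ko animals carried a conditional deletion whose driver and cell type the labels do not name, and the wild type animals were their Arg1-expressing littermates, 7 to 12 weeks old in both groups. Every mouse, controls included, had been given 2.5% dextran sulphate sodium (DSS, an agent that damages the colonic epithelium) in drinking water for 1 week and then plain water until day 10, so the comparison is between damaged colons. RNA came from epithelial aggregates released from the intestine with 30 mM EDTA, and the stretch of colon sampled from each mouse is not given in the labels.

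Values are listed below in the order wild type 1, 2, 3 and 4, then Arg1 ko 1, 2, 3 and 4. Arg1 itself had rlog values of 5.59, 5.57, 5.02 and 5.58 in wild type and 5.06, 4.87, 5.15 and 5.19 in ko, a difference of -0.37 (ko minus wild type, SE 0.15, limma adjusted p = 0.522, two-sided exact permutation p = 0.114). By mean level Arg1 stood at percentile 16.8 of tested genes, and this scale draws low-count genes towards their own mean. Among the wild type libraries, number 3 had an Arg1 value between the lowest and highest of the ko libraries, hence the wording "library labelled wild type 3" used for it. It was also the highest of the 8 for 6 of 7 skeletal muscle genes, a list drawn up after the data were seen, with Myh4 at 6.05 there and 2.56 to 2.97 elsewhere. No gene of the table passed an adjusted p of 0.05 with all 8 libraries (0 of 16380, smallest adjusted p 0.522, and 1490 at an unadjusted p under 0.05), whereas 1005 did without the library labelled wild type 3 (6.14%), with no member among them. Gene length moved with the comparison: across 16361 genes the difference between genotypes had a Spearman correlation of 0.46 with transcript length, and the deviations of wild type 1 one of -0.62. Genes are not independent replicates, and these 2 values are descriptions.

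The preparation was labelled as colonic epithelium, and most members were near the top of the table. Of the 10 members, 8 had a mean above the 90th percentile of tested genes, led by Emp1 at percentile 99.8, Cdhr5 at 99.7 and Krt20 at 99.6. Ceacam20 stood at percentile 85.4 and Slc37a2 at 73.5. These percentiles are of values not corrected for transcript length, and long transcripts collect more reads, so the order of levels is given after log2 of transcript length in kilobases was subtracted. On that scale of rlog per kilobase the order of mean levels was Krt20 (13.76), Emp1 (13.52), Cdhr5 (13.45), Vil1 (12.23), Cdhr2 (12.19), Myo1a (11.76), Ush1c (10.50), Slc51a (10.37), Ceacam20 (9.47) and Slc37a2 (7.56). Of the neighbours in this order, Krt20 and Emp1, Emp1 and Cdhr5, Vil1 and Cdhr2, and Ush1c and Slc51a stood closer to each other than the larger of their SDs over the 8 libraries. Other cells were present too: among markers of fibroblasts and matrix, 9 of 10 had a higher mean in ko, with a mean deviation of -0.33 to 0.07 in wild type libraries and 0.09 to 0.22 in ko libraries, while pan-epithelial genes were lower in ko for 10 of 12 (median -0.13), with a mean deviation of -0.18 to 0.23 in wild type and -0.16 to 0.05 in ko. Red blood cell genes were lower for 7 of 7 (median -0.88), B and plasma cell genes for 7 of 8 (-0.16) and cytosolic ribosomal protein genes for 14 of 14 (-0.39). Without wild type 1 and 2 the medians were -0.14 for red blood cell, -0.14 for B and plasma cell and -0.08 for ribosomal protein genes. The fibroblast median then went from 0.30 to 0.20, with 7 of 10 higher, and the pan-epithelial median to -0.07, with 9 of 12 lower. No gene of these 5 lists was called with all libraries, whereas without the library labelled wild type 3 the calls were 3 of 10 fibroblast, 2 of 12 pan-epithelial, 6 of 7 red blood cell, 8 of 14 ribosomal protein and 0 of 8 B and plasma cell genes, the last then 4 higher and 4 lower. The part of these genes in the values below was not tested. In bulk RNA, fewer cells of a type and less RNA per cell cannot be told apart.

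RefSeq promoter windows on GRCm38.p6, reaching from 250 bases before to 50 bases after the annotated start, were found for all 10 members (11 windows, since Emp1 has a pair of starts). The windows below are shown because Vil1 was the member whose groups separated, Ceacam20 and Slc51a carry the same short motif as Vil1, and Slc37a2 was the most variable of all tested genes. Capitals mark matches, on either strand, to CAAAGNNC, the core letters of one side of a binding site for hepatocyte nuclear factor 4, and in Ceacam20 also to TTTATNG, the core of a caudal-type (CDX) site. Both sets of letters were chosen after the sequences had been seen. Each sequence is written 5′ to 3′ on the gene's own strand.
Vil1 (chr1:74409134-74409433, plus strand): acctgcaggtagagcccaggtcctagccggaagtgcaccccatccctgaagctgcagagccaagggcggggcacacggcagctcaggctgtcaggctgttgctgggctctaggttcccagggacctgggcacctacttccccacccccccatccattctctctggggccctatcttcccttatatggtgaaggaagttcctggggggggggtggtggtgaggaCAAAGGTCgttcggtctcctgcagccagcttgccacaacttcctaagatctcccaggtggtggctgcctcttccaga
Ceacam20 (chr7:19965162-19965461, plus strand): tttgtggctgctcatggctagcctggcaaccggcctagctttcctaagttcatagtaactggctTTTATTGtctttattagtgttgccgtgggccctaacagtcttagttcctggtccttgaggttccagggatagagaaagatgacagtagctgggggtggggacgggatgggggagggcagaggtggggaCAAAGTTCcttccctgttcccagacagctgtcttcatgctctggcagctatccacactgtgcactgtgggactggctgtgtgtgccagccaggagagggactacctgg
Slc51a (chr16:32487830-32488129, minus strand): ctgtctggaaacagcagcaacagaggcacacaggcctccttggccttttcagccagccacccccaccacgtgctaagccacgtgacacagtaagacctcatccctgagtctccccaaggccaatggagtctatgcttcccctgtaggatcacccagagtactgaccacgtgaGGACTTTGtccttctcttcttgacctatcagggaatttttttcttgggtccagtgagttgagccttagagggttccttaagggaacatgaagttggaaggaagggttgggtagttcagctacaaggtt
Slc37a2 (chr9:37255689-37255988, minus strand): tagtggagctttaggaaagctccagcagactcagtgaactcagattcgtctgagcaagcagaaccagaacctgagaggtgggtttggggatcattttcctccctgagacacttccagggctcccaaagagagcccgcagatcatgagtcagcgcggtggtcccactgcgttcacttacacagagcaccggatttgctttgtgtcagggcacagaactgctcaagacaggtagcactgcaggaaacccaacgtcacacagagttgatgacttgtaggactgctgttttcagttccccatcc
The CAAAGNNC match began at position -27 from the start in Vil1, -58 in Ceacam20 and -78 in Slc51a. With both Emp1 windows it was found in 5 of the 11 member windows, and in 17.7% of all 32851 windows of this length. TTTATNG was found in 3 of 11 windows (Emp1, Ceacam20 and Krt20) and in 10.9% of all. The longer form CAAAGTCCA was in none of the 11 and in 0.475% of all, and TATAAA was in the Krt20 window alone, at position -29 and overlapping its CDX match, against 13.6% of all. A match is a run of letters and says nothing about binding.

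Among the 10 members, no gene passed the test between genotypes. With limma and Benjamini-Hochberg adjustment over all 16380 genes, 0 of 10 had an adjusted p under 0.05 (0.0% of all tested genes did) and 0 of 10 an unadjusted p under 0.05 (9.1% of all did). The means of 7 members were higher in ko and those of 3 lower, with a median difference of 0.05 against 0.0064 over all tested genes. That split depended on scaling: 8 of 10 were higher after quantile normalisation and 9 of 10 when libraries were centred on pan-epithelial genes, a step that moved the median of all tested genes from 0.0064 to 0.15. It depended on single libraries too: without ko 3, 5 were higher and 5 lower with a median of -0.0027, without wild type 4 the median was 0.12, as it was without ko 2, and without the library labelled wild type 3 it was 0.02. For only 1 member, Vil1, did the 2 groups not overlap, compared with 4.03% of all tested genes in either direction and 2.36% with ko the higher group. No member had all ko libraries below all wild type libraries, as 1.67% of tested genes did.

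**Figure D1:**
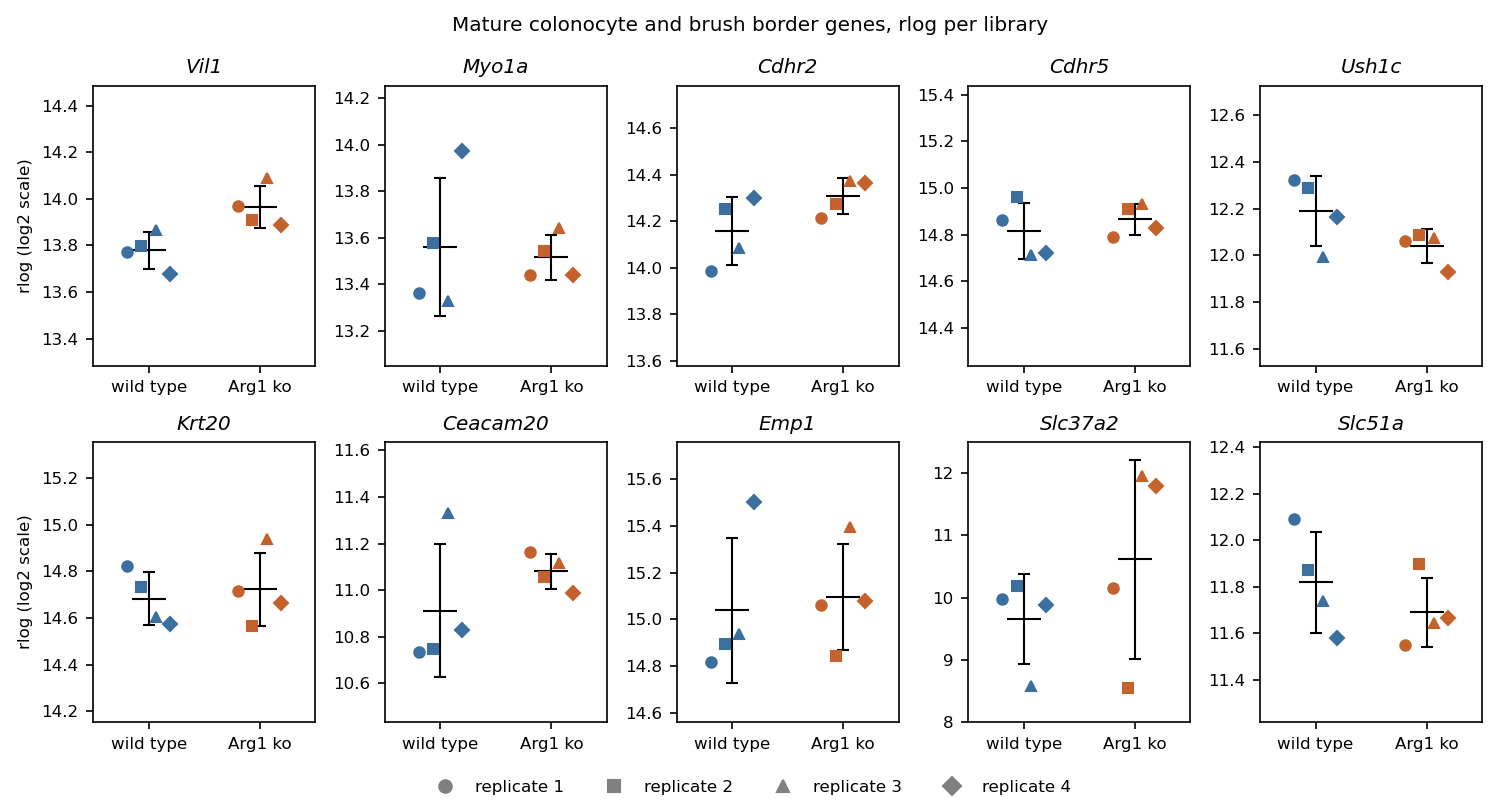
Regularised log2 value (y axis, a separate range in each panel) of each of the 10 members in each library, by genotype (x axis). Points are single libraries and bars are group means with their SD (n = 4 per group); the groups separate only for Vil1, and the Slc37a2 panel covers a range of 3.40.

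The genes of the actin core came first. Vil1 (ENSMUSG00000026175, chromosome 1, 74409376 to 74435559, plus strand, GRCm38) encodes villin, the actin-bundling protein of the microvillus. Its rlog values were 13.77, 13.80, 13.87 and 13.68 in wild type and 13.97, 13.91, 14.09 and 13.89 in ko. All 4 ko libraries lay above all 4 wild type libraries, although the lowest ko and highest wild type libraries were only 0.02 apart. The means were 13.78 ± 0.08 in wild type and 13.97 ± 0.09 in ko (SD, n = 4 each), a difference of 0.19 (SE 0.10, 95% interval -0.03 to 0.41), or 13.8% (interval -2.26% to 32.5%). The limma adjusted p was 0.522, and the two-sided exact permutation p was 0.0286, the smallest that 4 against 4 libraries allow. The latter carries no adjustment for the 10 members tested in this way or for the 16380 genes. After correction for transcript length the difference was 0.18, after quantile normalisation 0.38 and after pan-epithelial centring 0.33. Leaving out single libraries gave 0.14 to 0.22.

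Myo1a (chromosome 10, 127705170 to 127720940, plus strand) encodes the motor that bridges the actin bundle and the membrane. It read 13.36, 13.58, 13.33 and 13.97 in wild type and 13.44, 13.54, 13.64 and 13.44 in ko. Wild type 4 stood above the other 7 libraries and the groups overlapped fully, with a difference of -0.04 (SE 0.15, 95% interval -0.37 to 0.28, limma adjusted p = 0.902). Without wild type 4 the difference was 0.09, so that library set its sign.

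Of the wider list of 13 tested genes of the actin core and its membrane links, 8 were higher in ko and 5 lower, none of them called, with a median of 0.10. The unadjusted p nearest to the threshold was that of Pls1 (plastin 1, another actin bundler), which read 12.60, 12.63, 12.71 and 12.70 in wild type and 12.92, 12.70, 12.97 and 12.90 in ko (difference 0.21, limma adjusted p at or above 0.522 as for every gene). The lowest ko library lay just below the highest wild type library. Eps8, which caps actin filaments at the microvillus tip, differed by 0.15, Espn, a further bundler, by 0.10, and Ezr, whose product ezrin links actin to the membrane, by -0.06. Villin-like Vill stood at -0.23, in the other direction from Vil1. Quantile normalisation put 11 of the 13 above 0, and centring on pan-epithelial genes 12. Leaving out single libraries moved the median from 0.01 (without wild type 1) to 0.15 (without wild type 4). A further list, apical delivery and terminal web, leaned the other way: of 13 tested genes, 4 were higher in ko and 9 lower. Its median was -0.08, with 2 genes at an unadjusted p under 0.05 (limma) and none called. Pan-epithelial centring turned this to 9 higher and 4 lower. Without the library labelled wild type 3, 2 of the 13 were called.

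The intermicrovillar adhesion complex joins the microvillus tips. Cdhr2 (chromosome 13, 54701461 to 54736662, plus strand) encodes the protocadherin that pairs with CDHR5 across neighbouring tips. Its values were 13.99, 14.25, 14.09 and 14.30 in wild type and 14.21, 14.27, 14.37 and 14.37 in ko. Wild type 1 and the library labelled wild type 3 were the lowest, while wild type 2 and 4 sat among the ko libraries. The difference was 0.15 (SE 0.11, 95% interval -0.10 to 0.40, limma adjusted p = 0.582).

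Cdhr5 (chromosome 7, 141269083 to 141276786, minus strand), its partner, was the steadiest member. It read 14.86, 14.96, 14.71 and 14.72 in wild type and 14.79, 14.91, 14.93 and 14.83 in ko. The highest and the lowest of the 8 values were both wild type. Its difference was 0.05 (SE 0.11, 95% interval -0.20 to 0.30, limma adjusted p = 0.854). The SD over all 8 libraries was 0.0940, at percentile 6.40 of tested genes.

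Ush1c (chromosome 7, 46195350 to 46238503, minus strand) encodes harmonin, the scaffold that holds the protocadherin tails. Wild type libraries read 12.32, 12.29, 11.99 and 12.16, and ko libraries 12.06, 12.09, 12.08 and 11.93. Unlike both protocadherin genes it had the lower mean in ko, with the library labelled wild type 3 inside the ko range. The difference was -0.15 (SE 0.10, 95% interval -0.38 to 0.07, limma adjusted p = 0.555), -0.22 without that library (limma adjusted p = 0.126), -0.0085 after pan-epithelial centring (limma adjusted p = 0.968) and -0.04 without wild type 1 and 2. Of the remaining 3 genes of the complex, Anks4b, an ankyrin-repeat scaffold, differed by 0.16, Myo7b, its motor, by 0.24 and Calml4, a light chain of that motor, by -0.33. Calml4 was the only one of the 6 with an unadjusted p under 0.05. The complex as a whole had 4 of 6 genes higher in ko and none called, with a median of 0.10.

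The genes of the colonocyte surface did not separate by genotype. Krt20 (chromosome 11, 99428403 to 99438150, minus strand) read 14.82, 14.73, 14.61 and 14.57 in wild type and 14.72, 14.57, 14.94 and 14.66 in ko. The highest value was that of ko 3, and ko 2 was as low as wild type 4. The difference was 0.04 (SE 0.12, 95% interval -0.23 to 0.31, limma adjusted p = 0.897) and became -0.03 without ko 3.

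Ceacam20 (chromosome 7, 19965412 to 19991104, plus strand) encodes a cell adhesion molecule of the intestinal microvillus. Values in wild type were 10.74, 10.75, 11.33 and 10.83, and those in ko 11.16, 11.06, 11.12 and 10.99. The library labelled wild type 3 was the highest of all 8, while the other wild type libraries lay below every ko library. With all libraries the difference was 0.17 (SE 0.14, 95% interval -0.13 to 0.47, limma adjusted p = 0.609). Leaving that library out gave 0.31 with a limma adjusted p of 0.0551, the lowest of any member under any setting.

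Emp1 (chromosome 6, 135362545 to 135383173, plus strand) encodes epithelial membrane protein 1, a tetraspan protein of surface cells. Wild type libraries had 14.82, 14.90, 14.94 and 15.50, and ko libraries 15.06, 14.84, 15.40 and 15.08. Wild type 4 and ko 3 were the high libraries, 1 in each group. The difference was 0.06 (SE 0.18, 95% interval -0.34 to 0.46, limma adjusted p = 0.900), and it was -0.02 without wild type 1 and -0.04 without ko 3.

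Among 20 mature surface colonocyte genes, 5 of them members, 12 were higher in ko and 8 lower, with a median of 0.05 and none called (14 higher after quantile normalisation and 15 after pan-epithelial centring). Single libraries turned this split: 9 were higher and 11 lower without ko 3 (median -0.04), 10 and 10 without wild type 1 (median 0.04), and 10 and 10 without the library labelled wild type 3 (median -0.00010, 1 gene called). The 2 with an unadjusted p under 0.05 were both lower in ko: Guca2b, which encodes the guanylate cyclase ligand uroguanylin (difference -0.47), and Slc51b (difference -0.38). Guca2b read 10.27, 10.15, 9.61 and 9.74 in wild type and 9.37, 9.67, 9.36 and 9.50 in ko, with a single crossing between ko 2 and the library labelled wild type 3.

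The 2 transporter genes behaved differently from each other. Slc51a (chromosome 16, 32474504 to 32487879, minus strand) encodes the alpha subunit of the basolateral exporter of bile acids and steroids. It read 12.09, 11.87, 11.74 and 11.58 in wild type and 11.55, 11.90, 11.65 and 11.67 in ko. Wild type 1 was the highest, and the other libraries of both groups were interspersed. The difference was -0.13 (SE 0.13, 95% interval -0.41 to 0.15, limma adjusted p = 0.663).

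The beta subunit gene Slc51b had 11.25, 11.06, 10.76 and 11.20 in wild type and 10.60, 10.86, 10.72 and 10.57 in ko. Here only ko 2 and the library labelled wild type 3 crossed. Nr1h4, which encodes the bile acid receptor FXR, was the 1 gene of the 7 tested for bile acid and steroid transport whose groups did not overlap. Of all tested genes, 1.67% had groups apart with ko the lower. Nr1h4 read 12.16, 12.47, 12.13 and 12.33 in wild type and 12.05, 12.01, 11.91 and 12.05 in ko (difference -0.27, not called). In the bile acid and steroid list 3 genes were higher and 4 lower, with a median of -0.13, and pan-epithelial centring turned this to 4 higher, 3 lower and a median of 0.016. Without the library labelled wild type 3, 1 gene of the list was called, and leaving out single libraries gave medians from -0.21 (without wild type 4) to -0.04 (without wild type 1).

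Slc37a2 (chromosome 9, 37227585 to 37255738, minus strand), a sugar-phosphate exchanger of the endoplasmic reticulum, had an SD of 1.26 over the 8 libraries, rank 1 of all 16380 tested genes, where the median SD was 0.212. Its values were 9.98, 10.19, 8.58 and 9.88 in wild type and 10.16, 8.55, 11.95 and 11.79 in ko. The library labelled wild type 3 and ko 2 were equally low, ko 3 and ko 4 were high, and the remaining 4 libraries, from both genotypes, lay together between them. The groups overlapped below 10.19, and ko 3 and ko 4 lay above every wild type library. The means were 9.66 ± 0.73 and 10.61 ± 1.60 (SD, n = 4 each), a difference of 0.96 (SE 0.68, 95% interval -0.56 to 2.47, limma adjusted p = 0.575, two-sided exact permutation p = 0.286). Leaving out single libraries gave differences from 0.51 to 1.64.

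**Figure D2:**
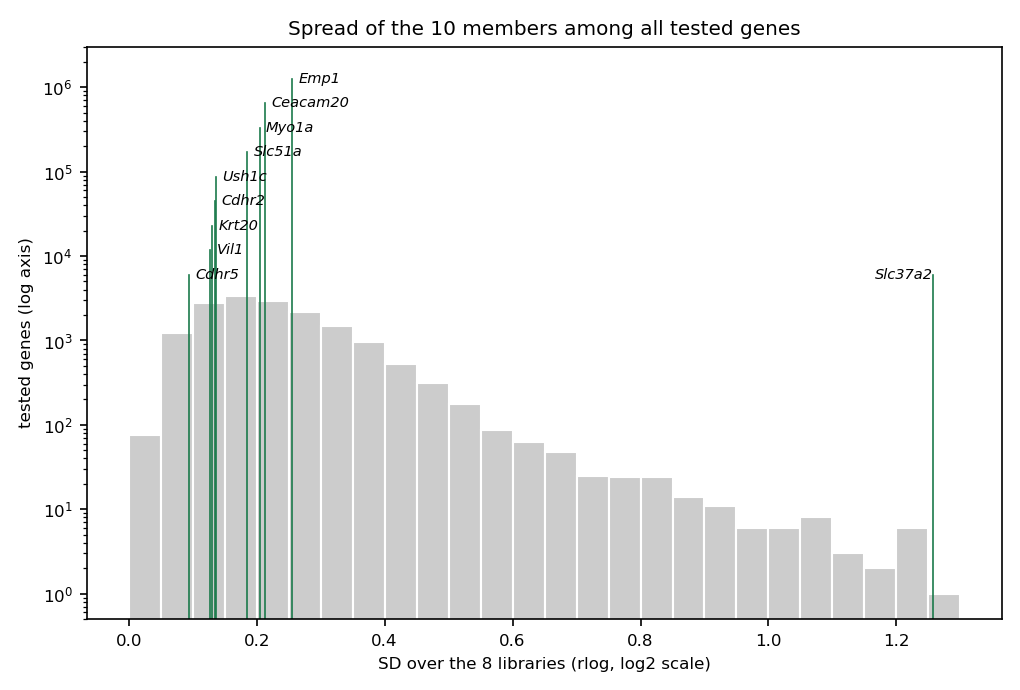
Histogram of the SD of each of the 16380 tested genes over the 8 libraries (x axis, rlog) against the number of genes (y axis, log scale), with a labelled green line at the SD of each member; line height has no meaning. Slc37a2 lies at 1.26 at the far right, and 7 of the 10 members lie below the median SD of 0.212.

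The spread over the 8 libraries differed between members. Cdhr5 had the smallest SD and 7 of the 10 were below the median SD of all tested genes. For 7 members the SD was larger among wild type than among ko libraries. The exceptions were Vil1, Krt20 and Slc37a2, and 90.9% of all tested genes had the larger SD in wild type. Myo1a had an SD of 0.30 in wild type and 0.10 in ko, Ceacam20 0.28 and 0.08, and Slc37a2 0.73 and 1.60.

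The members did not move as 1 group across libraries. Of their 45 pairs, 25 had a positive and 20 a negative Pearson r over the 8 libraries, with a median r of 0.07. Because all pairs share the same libraries, r is given as a description. The most alike were Emp1 and Myo1a (r = 0.78), both high in wild type 4, and the least alike Ush1c and Ceacam20 (r = -0.79). Vil1 was most like Ceacam20 (0.63), Cdhr2 most like Emp1 (0.60), Cdhr5 most like Krt20 (0.54) and Slc51a most like Ush1c (0.63). The partners Cdhr2 and Cdhr5 were thus not each other's nearest member.

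**Figure D3:**
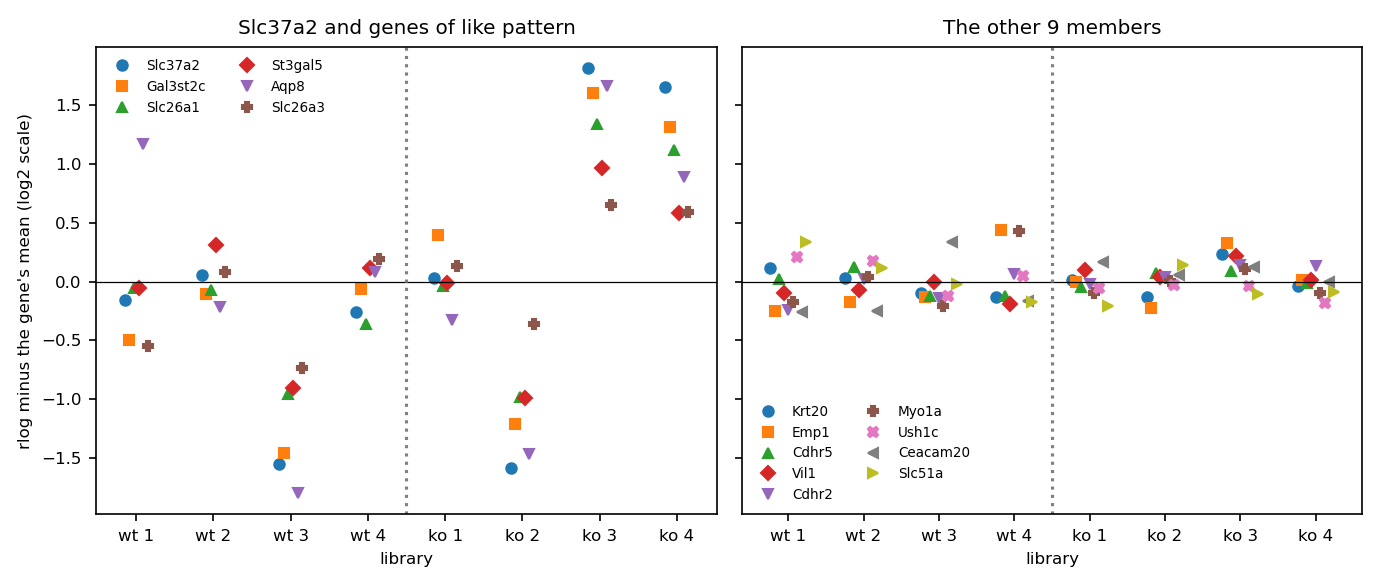
Deviation of each gene from its own mean (y axis, rlog, log2 scale) in each library (x axis), wild type left and ko right of the dotted line: on the left Slc37a2 with 5 other genes, on the right the other 9 members on the same axis. The genes on the left are low in ko 2 and the library labelled wild type 3 and high in ko 3 and ko 4, and the members on the right stay near 0.

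The mean of the 10 members, each centred on its own mean, was largely the Slc37a2 profile (r = 0.97 over 8 libraries), since no other member varied as much. The non-member genes most like that mean profile were Gal3st2b (r = 0.971), Gal3st2c (0.965), Slc26a1 (0.961), Rabgef1 and St3gal5 (both 0.954), and among the 5 least alike were Avpr1a (-0.927), Adora1, Art4 and Rgs17. Gal3st2c, a galactose sulphotransferase gene, read 8.86, 9.25, 7.90 and 9.29 in wild type and 9.75, 8.14, 10.96 and 10.67 in ko, and its SD ranked 14 among tested genes. Slc26a1, a sulphate transporter gene, read 5.76, 5.74, 4.86 and 5.45, then 5.78, 4.83, 7.16 and 6.94. In both, which were picked by their r with this profile, the same 2 libraries were lowest and the same 2 highest as for Slc37a2. Rabgef1 followed the profile over a range of only 0.146.

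Transport genes of the mature colonocyte list were mixed in how far they shared these extremes. Aqp8, a water channel of surface colonocytes, read 11.10, 9.71, 8.13 and 10.01 in wild type and 9.60, 8.46, 11.59 and 10.82 in ko, and its SD ranked 4. Slc26a3, the chloride and bicarbonate exchanger, read 11.85, 12.49, 11.67 and 12.60, then 12.53, 12.04, 13.05 and 12.99, with wild type 1 below ko 2. Car1, a carbonic anhydrase gene, was lowest at 17.51 in the library labelled wild type 3, then at 17.80 in ko 2, and highest in ko 3 and ko 4 at 18.28 and 18.31. Aqp8 thus shared its 2 lowest libraries and ko 3 as its highest with Slc37a2, but had wild type 1 in second place. Other genes of the same list did not follow: Car4, a membrane-bound carbonic anhydrase gene, had an r of 0.096 with Slc37a2 over the 8 libraries, Slc9a3, the sodium and proton exchanger, one of -0.224, Slc51b one of -0.311 and the member Slc51a one of -0.339. Of the posterior Hox genes, which mark position along the gut, 3 were tested. Hoxa13 read 5.96, 6.03, 6.19 and 6.47, then 6.19, 6.25, 5.56 and 5.87, lowest in ko 3 and ko 4 (r with Slc37a2 -0.746), whereas Hoxd11 had an r of -0.516 and Hoxd10 of -0.056. The part of the sampled position in these values was not tested. In the 2 libraries lowest for Slc37a2, the skeletal muscle gene Myh4 read 2.56 (ko 2) and 6.05 (the library labelled wild type 3). The part of skeletal muscle RNA was not tested.

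Transcription factors of colonocyte differentiation were read beside the members, and whether they act on the members was not tested. Of 12 such genes 8 were higher in ko and 4 lower, with a median of 0.06 and none called (10 higher after quantile normalisation and 11 after pan-epithelial centring). Without the library labelled wild type 3, 7 were higher and 5 lower, and 3 of the 12 were called. Hnf4a, which encodes a nuclear receptor of the absorptive lineage, read 13.47, 13.62, 13.79 and 13.42 in wild type and 13.83, 13.84, 14.01 and 13.98 in ko (difference 0.34, limma adjusted p = 0.522). It was the only 1 of the 12 whose groups did not overlap, compared with 2.36% of all tested genes with ko the higher group. Its paralog Hnf4g read 7.61, 8.13, 8.81 and 8.05, then 9.01, 8.82, 8.83 and 8.72, a difference of 0.69 with the library labelled wild type 3 inside the ko range. The caudal-type genes Cdx1 and Cdx2 differed by -0.17 and 0.05. Transcript length was a measured companion of the brush border and colonocyte values. Over 51 genes of the adhesion complex, actin core, apical and mature colonocyte lists, the difference between genotypes had a Spearman correlation of 0.50 with it. The transcription factor list was not part of that set.

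**Figure D4:**
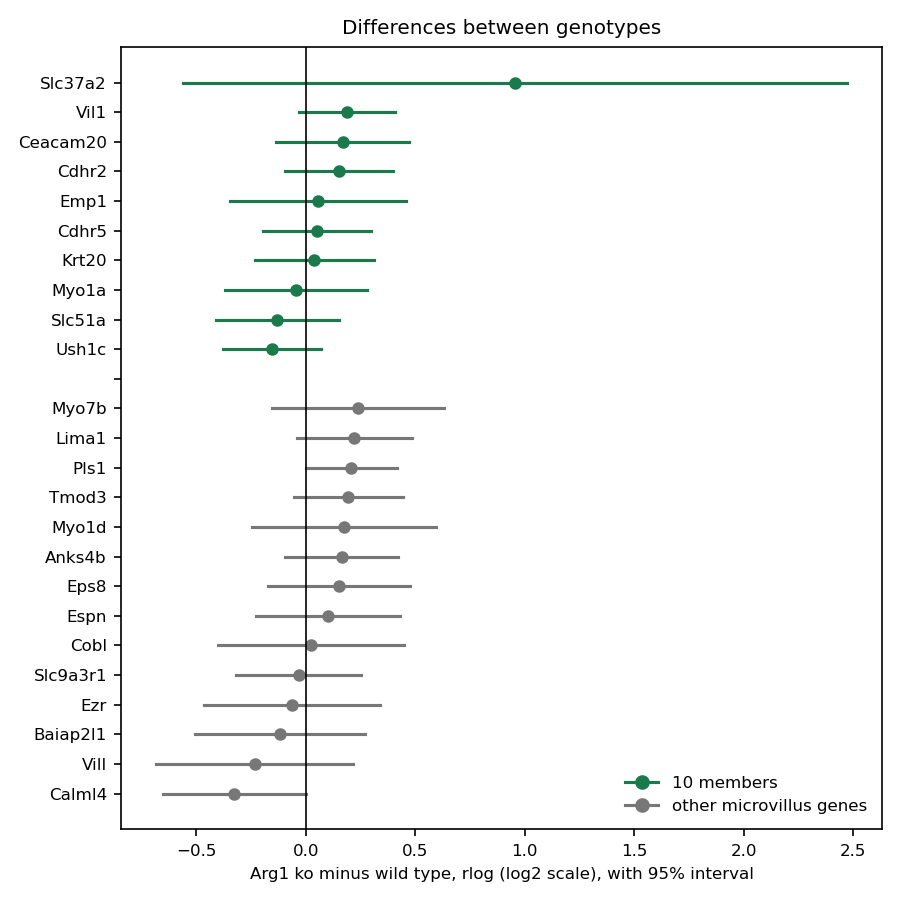
Difference in rlog between genotypes (x axis, Arg1 ko minus wild type) of the 10 members (green) and of the other genes of the microvillus lists (grey), 1 gene per line. Points are differences of means, bars are 95% intervals from limma, and every member's interval spans 0, from Vil1 at 0.19 with an interval of -0.03 to 0.41 to Slc37a2 at 0.96 with one of -0.56 to 2.47.

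How large a difference these 8 libraries leave possible for a member is given by its interval. For Vil1, Myo1a, Cdhr2, Cdhr5, Ush1c, Krt20 and Slc51a the interval ended within 0.41 of 0 on both sides, and for Slc37a2 it reached 2.47. In data simulated with the pooled SD of each gene, the test called 32.8% of the genes given a change of 0.5, 71.6% at a change of 1 and 97.0% at a change of 2. There were 9 false calls. Those data were drawn independently for each gene and with a common SD for both groups, whereas 90.9% of tested genes had the larger SD in wild type. The shares therefore describe the simulated data and cannot be carried over to these libraries.

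**Figure D5:**
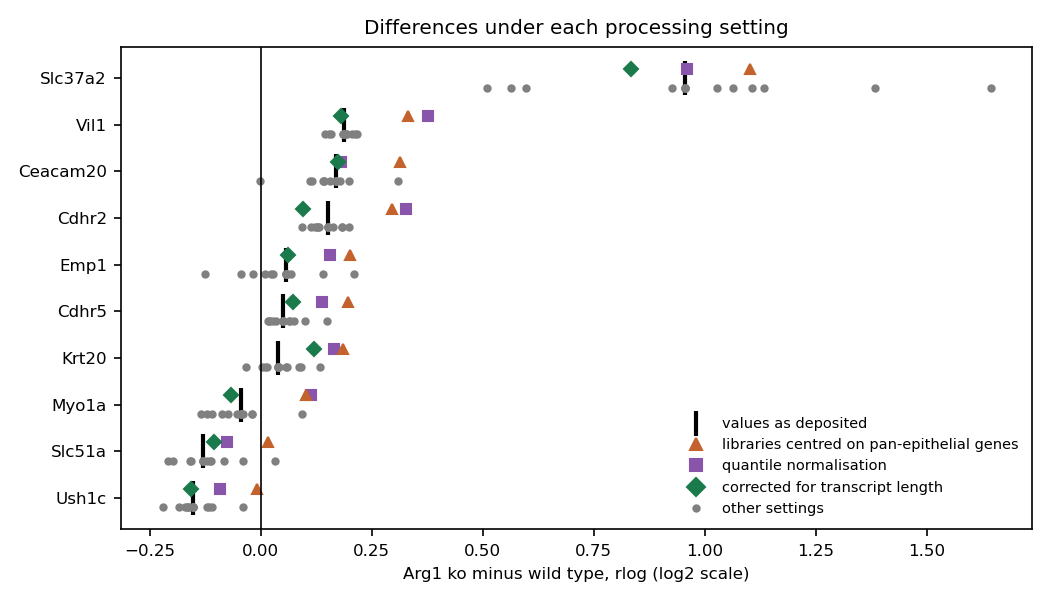
Difference in rlog between genotypes (x axis, Arg1 ko minus wild type) of each member under the deposited scaling and the 17 other settings. The differences of Vil1, Cdhr2, Cdhr5, Slc37a2 and Ush1c stay on 1 side of 0 under every setting plotted, and those of the other 5 members cross it.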

How the data were processed

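RNA was sequenced from colonic epithelial aggregates of 8 mice, with 1000 ng of total RNA and a stranded mRNA kit per library, per the labels' protocols. The submitters' processing notes name STAR 2.5.2b, BWA 0.7.14-r1136, featureCounts, Subread 1.5.3, DESeq2 1.16.1 and the GRCm38 genome, without the role of each. The authors deposited 1 table of regularised log2 (rlog) values for 53465 gene identifiers, of which 24860 are 0 in every library. Counts were not analysed here, so the depth of each library is unknown and no counting interval is given. The rlog step pulls low-count genes towards their mean and understates their differences.

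Groups were taken from the genotype in the labels, all 8 columns were matched to samples by name, and 0 columns were unused. Libraries were compared before averaging: Euclidean distances between the 28 pairs ran from 23.8 to 75.2, so none was a copy of another. The labels call the controls littermates without saying which mice shared a litter, and the p-values speak only of how these samples vary.

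Every gene whose mean rlog reached 3 entered a fit with limma 3.58.1 (R 4.3.3) with the prior variance following the mean, 2 groups and no covariates, adjusted by Benjamini-Hochberg over 16380 genes, with an adjusted p of 0.05 as threshold and 95% intervals. Exact permutation tests over samples were two-sided. The test was checked on simulated data with 200 changed genes among 16380. Coordinates and transcript lengths are those of the GENCODE annotation on GRCm38, and promoter windows are from RefSeq (GRCm38.p6). Percentiles and ranks are among tested genes. Tables were handled in Python 3.11.15 with pandas 2.3.3 and scipy 1.17.1.

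The members, the gene lists and the tests were chosen with earlier results of these data known. Named genes were all members and Arg1, genes of the microvillus, bile acid, transcription factor and mature colonocyte lists, up to 4 genes of each other list, and the 5 genes with the highest and the 5 with the lowest r with the mean member profile, leaving out predicted genes, clones, pseudogenes and receptor segments, and some genes that this rule names are not reported here. The skeletal muscle list and the promoter motifs were chosen after seeing the data. Alternatives were 16 planned settings (filters, scalings, priors and libraries left out) and a correction for transcript length, a spline with 5 degrees of freedom, added after seeing the data.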

Additional observations from a re-analysis of the deposited data

Results flagged for a closer look

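Ceacam20 was at 11.33 in the library labelled wild type 3, the highest value of the wild type group, whose other libraries read 10.74, 10.75 and 10.83. The gap to the nearest of them, as a share of the range of the group, was above Dixon's 95% critical value for 4 samples, a criterion that chance meets in about 1 of 20 groups. The same library had the Arg1 value inside the ko range and the highest skeletal muscle genes. Their part in the Ceacam20 value was not tested.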

How the results depend on the processing

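Across 17 alternative settings no member was called, and the lowest member adjusted p was 0.0551 (limma, Ceacam20 without the library labelled wild type 3). The count of called genes over the whole table was 0 except without that library, where it was 1005, so that leaving out single libraries gave 0 to 1005. Of 170 member differences under the alternatives, 160 kept their direction and 10 reversed. Centring on pan-epithelial genes gave 0.10 for Myo1a and 0.016 for Slc51a, and quantile normalisation gave 0.11 for Myo1a. Leaving out wild type 1 and 2 together gave -0.0010 for Ceacam20, -0.12 for Emp1 and 0.032 for Slc51a. Leaving out single libraries gave -0.12 to 0.092 for Myo1a, -0.034 to 0.091 for Krt20 and -0.044 to 0.21 for Emp1. The cause was not tested. The differences of Vil1, Cdhr2, Cdhr5, Slc37a2 and Ush1c kept 1 direction throughout. No paired analysis was possible because the labels do not say which mice shared a litter. Sequencing depth is unknown, and with 4 libraries per group differences of the size of the member intervals cannot be told from 0.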

Other observations

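Related genes of the members' families were read beside them. Of 17 tested paralogs, 13 were higher in ko and 4 lower, with a median of 0.07 and none called (10 higher after correction for transcript length, and 9 without wild type 1, with a median of 0.0011). Slc37a4, which encodes the glucose-6-phosphate transporter, differed by -0.40, Slc37a1 by 0.00, Emp2 by 0.02 and Ceacam1 by 0.22. Goblet cell markers, the secretory neighbours of colonocytes, were higher for 6 of 10 and lower for 4 (8 higher after quantile normalisation), with Muc2, the main mucin gene, at a difference of 0.08, Tff3 at -0.29 and Atoh1, the secretory master regulator, at 0.51, none of them called. Crypt base and Wnt target genes were higher in ko for 9 of 9 (median 0.39, and 8 of 9 after the length correction) and cell cycle genes for 11 of 12 (median 0.51), again with none called, while regenerating epithelium genes were lower for 9 of 9 (median -0.34, and 8 of 9 after pan-epithelial centring). Without the library labelled wild type 3, 2 crypt base, 2 cell cycle and 2 regenerating epithelium genes were called. Cytosolic ribosomal protein genes (14 of 14 lower, median -0.39) and red blood cell genes (7 of 7 lower, median -0.88) moved alongside, and their part was not tested. Without wild type 1 and 2 the medians of these last lists were -0.08 and -0.14. Of 12 small intestinal enterocyte markers 8 passed the filter on low values. The summed level of these 8, on a log2 scale, was 14.05 to 14.57 in wild type libraries and 14.33 to 14.44 in ko libraries. Of the 8, 5 were higher in ko and 3 lower, with none called. The other 4 markers had a mean rlog of 2.27 (Lct), 1.58 (Apoa4), 2.51 (Fabp1) and 2.41 (Treh).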
